A study of Xenopus laevis with 5 samples.

Results

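Genes for pre-mRNA splicing factors were examined in ectodermal explants of Xenopus laevis that had received ICD RNA together with FoxJ1 RNA, or ICD RNA alone. The genes were taken by symbol from the platform annotation. A gene belonged if its symbol, without the .L or .S that marks the homeolog, began with snrp, srsf, sf3a, sf3b, hnrnp, prpf, u2af or lsm and a digit, or was sf1. This gave 119 probe sets for 80 genes, of 7531 genes with a symbol on the array. For each gene the brightest probe set, by its mean over the 5 arrays, was used, and L and S homeologs were counted as separate genes. Another 2 probe sets, annotated to both homeologs of hnrnpa2b1 and of hnrnpa3, were left out because they name no single gene.

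The 2 samples of the ICD+FoxJ1 group and the 3 samples of the ICD group came from embryos injected with synthetic RNA at the 2-cell stage, whose strain the labels do not give. Both groups carried ICD, so the contrast is the addition of FoxJ1 to explants that already had ICD. Prospective ectoderm was taken at stage 9 to 10 and kept on fibronectin until RNA was isolated at stage 22. ICD commonly stands for the Notch intracellular domain, although the labels leave it unexplained, and FoxJ1 is a forkhead transcription factor known for motile cilia. Nothing in the labels tells whether the replicates are separate embryo batches. The p-values therefore reflect the spread among these arrays alone, and that spread may be technical. Explants hold several cell types, so fewer cells of a type and less RNA per cell cannot be told apart in these values.

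The spliceosome removes introns from nuclear transcripts. It is built from small nuclear ribonucleoproteins (snRNPs), in which a small RNA is held by a ring of Sm or LSm proteins, together with many further proteins that join and leave during each round. The SR proteins and hnRNPs bind the transcript itself and influence which splice sites are used. The roles given here are those known from human or yeast proteins.

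Adding FoxJ1 went with slightly lower signals for most splicing factor genes, and with a change past the test's threshold in 1 of them. Of the 80 genes, 72 had a log2 difference (ICD+FoxJ1 minus ICD) below 0, where 51.9% of all 11618 tested probe sets did. With the dimmest 50% of probe sets left out, 72 of 78 genes and 54.6% of all tested probe sets lay below 0. The median log2 difference was -0.42 for the splicing factor genes and -0.03 for all tested probe sets, and the quartiles of the splicing factor genes were -0.58 and -0.18. Differences ranged from -0.95 in prpf19.L to 0.40 in lsm12.L. In the limma fit over all probe sets, 1 splicing factor gene fell and 0 rose at an adjusted p below 0.05. Among all tested probe sets 2.99% fell and 4.48% rose by that criterion, so the count of 1 in 80 does not exceed the background. At an unadjusted limma p below 0.05, 22 of the 80 were lower and 0 higher, against 12.3% lower and 12.3% higher among all tested probe sets. Those 22 were 6 of 12 snrp, 4 of 10 prpf and 6 of 13 sf3, sf1 and u2af genes. The rest were 3 of 14 srsf, 2 of 20 hnrnp and 1 of 11 lsm genes, and the last 2 shares did not exceed 12.3%.

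In 46 of the 80 genes both ICD+FoxJ1 arrays lay below all ICD arrays, or 57.5%, where 23.0% of all tested probe sets did. The reverse, both ICD+FoxJ1 arrays above all ICD arrays, held for 1 gene, lsm12.L, where 21.2% of all tested probe sets did. The groups overlapped in the other 33 genes. The median log2(signal + 16) of the 80 genes was 9.34 and 9.34 on the ICD+FoxJ1 arrays, and 10.03, 9.69 and 9.62 on ICD replicates 1 to 3. Over all tested probe sets that median was 7.20 and 7.12 on the ICD+FoxJ1 arrays, and 7.07, 7.18 and 7.13 on ICD replicates 1 to 3. The shares of all tested probe sets given here thus come from mostly dimmer probe sets. The medians of the 80 genes describe the list and carry no test, and genes on the same arrays are not independent of each other.

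**Figure D1:**
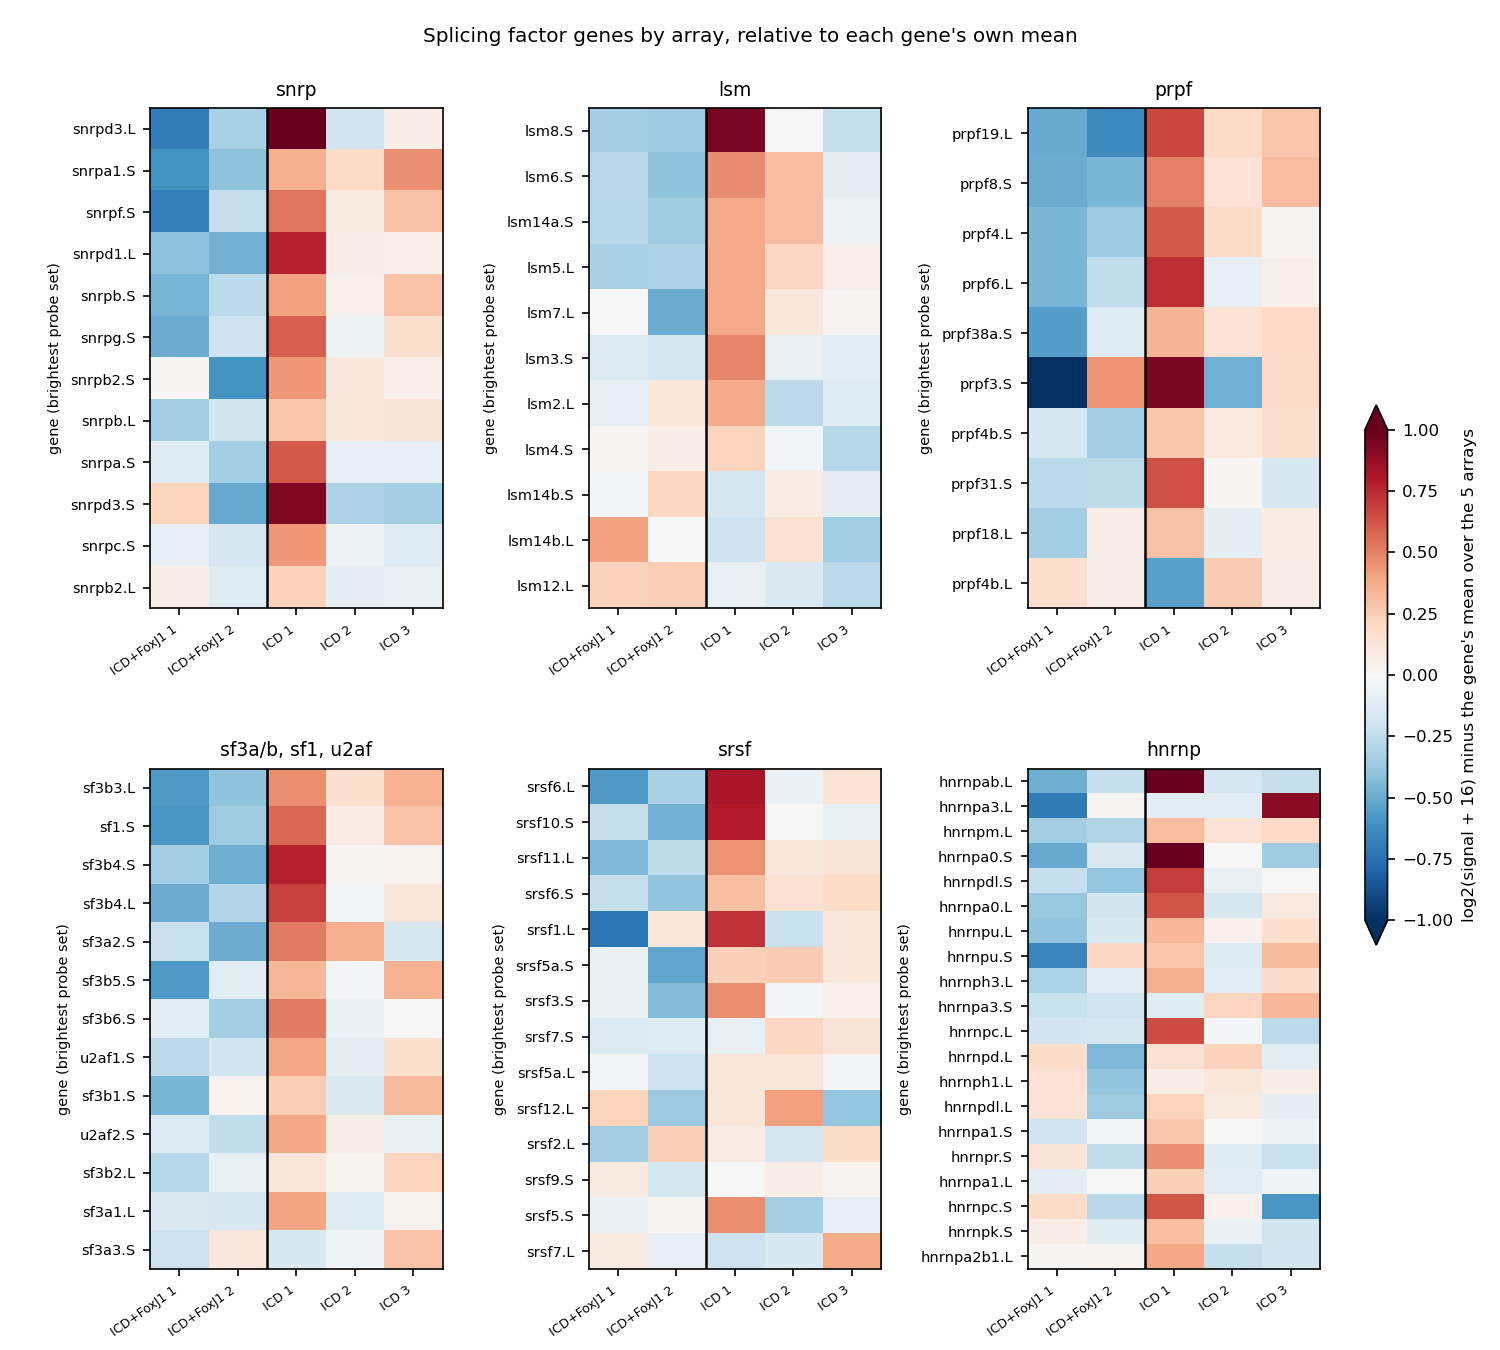
Log2(signal + 16) of each of the 80 splicing factor genes on each array, minus that gene's mean over the 5 arrays, with 1 panel per subfamily and genes ordered by their difference between groups. The ICD+FoxJ1 arrays, left of the black line, are mostly blue (below the gene's mean) and ICD replicate 1 is the reddest column, being the highest array for 59 of the 80 genes.

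ICD replicate 1 was the highest of the 5 arrays for 59 of the 80 genes, where it was the highest for 25.4% of all tested probe sets. By subfamily it was the highest for 11 of 12 snrp, 9 of 10 prpf and 8 of 11 lsm genes. The counts were 9 of 13 for the sf3, sf1 and u2af genes, 7 of 14 for srsf and 15 of 20 for hnrnp. The same array had the lowest median signal over all probe sets other than controls, 62.1 where the others had 69.7 to 73.5. It also had the smallest share of probe sets above background, 65.3% against 70.3% to 77.3%. Whether this bears on the splicing factor values was not tested. Without ICD replicate 1, the median log2 difference of the splicing factor genes was -0.26 and that of all tested probe sets -0.03. Then 67 of the 80 genes lay below 0, and 2 fell, prpf19.L and snrpa1.S, where 5.64% of all tested probe sets fell. The subfamily medians without it were -0.39 for snrp, -0.36 for prpf, -0.30 for the sf3, sf1 and u2af genes, -0.26 for srsf, -0.18 for hnrnp and -0.07 for lsm. The median of the 80 genes was -0.49 without ICD replicate 2 and -0.46 without ICD replicate 3.

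The arrays also differ in their poly-A controls, which are bacterial transcripts spiked into the sample for labelling. The median signal of these controls was 368 on ICD+FoxJ1 replicate 1 and 318 and 324 on ICD replicates 1 and 2, but 1.90 on ICD+FoxJ1 replicate 2 and 2.95 on ICD replicate 3. Within the arrays that had this signal, 1 with FoxJ1 against ICD replicates 1 and 2, 73 of the 80 genes were lower with FoxJ1. The median log2 difference of the 80 was -0.45, and 50.9% of all tested probe sets were lower. Within the other pair, 1 array against 1, 63 were lower and the median was -0.29, where 51.9% of all tested probe sets were lower. In these 2 sets of arrays, in that order, the median was -0.79 and -0.31 for prpf and -0.61 and -0.38 for snrp. For the sf3, sf1 and u2af genes it was -0.51 and -0.35, and for hnrnp -0.39 and -0.19. For lsm it was -0.25 and -0.06, and for srsf -0.30 and -0.32. The genes lower in both sets of arrays numbered 59, or 73.8%, where 38.0% of all tested probe sets were.

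**Figure D2:**
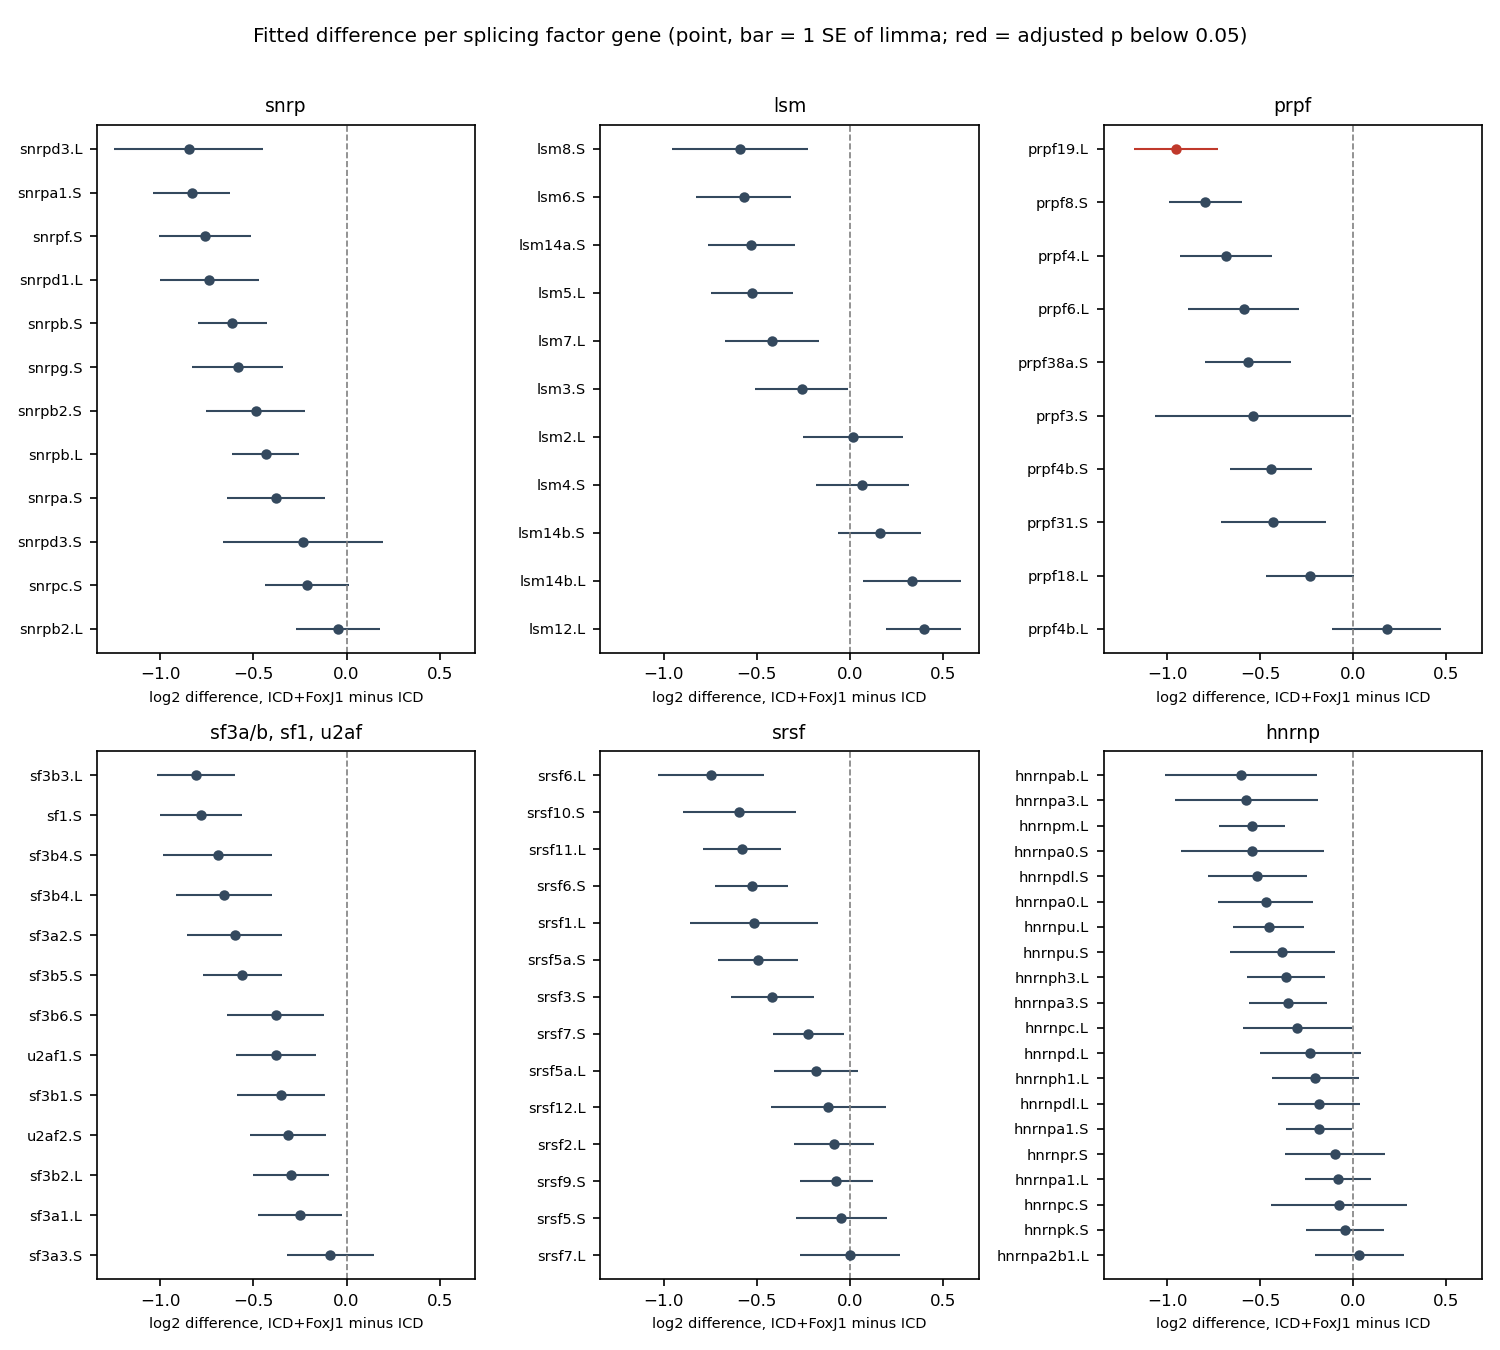
Log2 difference, ICD+FoxJ1 minus ICD, for the 80 splicing factor genes by subfamily. Points are the limma estimates, bars 1 standard error, and the dashed line marks no difference. Prpf19.L, in red, is the only gene at an adjusted p below 0.05, and most other points lie left of the dashed line.

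The prp factors are proteins that carry the spliceosome through its assembly and its catalytic steps, and 9 of their 10 genes had a difference below 0, with a median of -0.55. Prpf19.L encodes the ubiquitin ligase that gives its name to a spliceosomal complex that joins when the spliceosome is activated. Its signal was 497 and 451 in the ICD+FoxJ1 samples, against 1135, 815 and 866 in the ICD samples. Both ICD+FoxJ1 arrays were thus below all ICD arrays, with means of 474 ± 32.5 (SD, n = 2) and 939 ± 172 (SD, n = 3). The gene fell by 0.95 on the log2 scale (SE 0.23, limma adjusted p = 0.0459), to 51.7% of the ICD level. A second, dimmer probe set of prpf19.L fell by 1.07 (limma adjusted p = 0.0462). The call of the first probe set is close to the threshold: its adjusted p ran from 0.034 to 0.404 over 16 settings of the fit and passed in 6 of them, whereas its log2 difference stayed between -1.04 and -0.81. Without ICD replicate 1 the gene still passed. It did not pass without ICD replicate 2 or 3, or without ICD+FoxJ1 replicate 1 or 2, where 0 of the 80 genes fell and the share of all tested probe sets that fell was 1.77%, 1.43%, 0.362% and 0.293%.

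Prpf8.S encodes the large scaffold at the catalytic centre of the spliceosome. It had a signal of 913 and 940.1 with FoxJ1 added, and of 1838, 1431 and 1609 with ICD alone. The 2 ICD+FoxJ1 arrays nearly coincided below the ICD arrays, and the log2 difference of -0.79 (SE 0.20) missed the threshold with a limma adjusted p = 0.0535. Prpf4.L, of the particle that pairs the U4 and U6 RNAs, had 394 and 423 in ICD+FoxJ1 explants and 847, 626 and 553 in ICD explants. These groups also did not overlap (difference -0.68, SE 0.25, limma adjusted p = 0.142). Of the other tri-snRNP proteins, prpf6.L differed by -0.59, prpf3.S by -0.54 and prpf31.S by -0.43. Within the pair of arrays without poly-A signal, they differed by -0.29, 0.26 and -0.11, in that order. Prpf3.S was uneven within groups, with signals of 264 and 804 with FoxJ1 and of 1134, 413 and 670.4 without. Prpf38a.S, of spliceosome activation, differed by -0.57, and prpf18.L, of the second catalytic step, by -0.23. The homeologs of prpf4b, a kinase gene, had opposite signs, 0.18 for prpf4b.L and -0.44 for prpf4b.S, and neither passed.

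The snrp genes encode proteins of the snRNPs. All 12 had a log2 difference below 0, with a median of -0.54. None passed the adjusted threshold, and 6 had an unadjusted limma p below 0.05. Over the full array, 12.3% of tested probe sets were lower at that level. In 9 of the 12 the groups did not overlap. Such separation, with FoxJ1 lower, held for 23.0% of tested probe sets over the full array. Snrpa1.S encodes a protein of the U2 snRNP, the particle that pairs with the branch point. Its signal was 518 and 593 in the ICD+FoxJ1 samples, and 1021, 899 and 1089.5 in the ICD samples. Here ICD replicate 3, not replicate 1, was the highest array, and the log2 difference was -0.83 (SE 0.21, limma adjusted p = 0.0515). All 4 probe sets of this gene lay below 0, from -0.83 to -0.58.

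Snrpb, snrpd1, snrpd3, snrpf and snrpg encode proteins of the Sm ring that is shared by most spliceosomal snRNPs. Their 7 genes had a median log2 difference of -0.61, and in 6 the groups did not overlap. The array-wide share of probe sets separated in this direction was 23.0%. Snrpb.S had 2480.4 and 2839 with FoxJ1 added, against 4556, 3541 and 4183 with ICD alone, a difference of -0.61 (SE 0.19, limma adjusted p = 0.0924). Its homeolog snrpb.L had 1596 and 1777 in ICD+FoxJ1 explants and 2456, 2183 and 2216 in ICD explants, a difference of -0.43 (SE 0.18, limma adjusted p = 0.187). Both homeologs were thus lower on each ICD+FoxJ1 array than on any ICD array. Snrpf.S was at 328 and 457 against 787, 572 and 662 in ICD explants, a difference of -0.76 (SE 0.25, limma adjusted p = 0.113). The remaining ring genes differed by -0.85 (snrpd3.L), -0.74 (snrpd1.L), -0.59 (snrpg.S) and -0.23 (snrpd3.S). For snrpd3.L the ICD mean rests on ICD replicate 1, with signals of 220.2 and 289 with FoxJ1 against 832, 316 and 384 without. Of the proteins particular to the U1 snRNP, which binds the start of the intron, snrpa.S differed by -0.38 and snrpc.S by -0.21. Snrpb2, of the U2 snRNP, differed by -0.49 in its S and -0.05 in its L homeolog. A second probe set of snrpb2.L, with a mean signal of 317 against 365 for the first, differed by 0.35 and did not pass the threshold.

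A further 13 genes encode proteins that recognise the branch point and the end of the intron. These are the SF3A and SF3B complexes of the U2 snRNP, the branch point binding protein SF1 and both U2AF subunits. All 13 had a log2 difference below 0, with a median of -0.38, and in 11 the groups did not overlap. Array-wide, 23.0% of tested probe sets were separated with FoxJ1 lower. None passed the adjusted threshold, although 6 had an unadjusted limma p below 0.05. The array-wide share that was lower at that unadjusted level was 12.3%. Sf3b3.L was at 503 and 566 with FoxJ1, against 1044, 841 and 965 with ICD alone (difference -0.81, SE 0.21, limma adjusted p = 0.0586). Sf1.S was at 831 and 970.1, against 1866, 1319 and 1526 in ICD samples (difference -0.78, SE 0.22, limma adjusted p = 0.0769). In both genes the ICD+FoxJ1 arrays lay well under the lowest ICD array. Sf3b5.S had 2103 and 2895 in the ICD+FoxJ1 samples and 3927, 3099 and 3974 in the ICD samples (difference -0.56, SE 0.21, limma adjusted p = 0.161). The sf3b4 homeologs were close, at -0.66 for L and -0.69 for S. The subunit that contacts the branch point, sf3b1.S, differed by -0.35, but its dimmer probe sets differed by 0.17 and 0.25, none of them past the threshold. U2af1.S differed by -0.38 and u2af2.S by -0.31. The sf3a genes differed by -0.60 (sf3a2.S), -0.25 (sf3a1.L) and -0.09 (sf3a3.S), and sf3b6.S and sf3b2.L by -0.38 and -0.30.

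**Figure D3:**
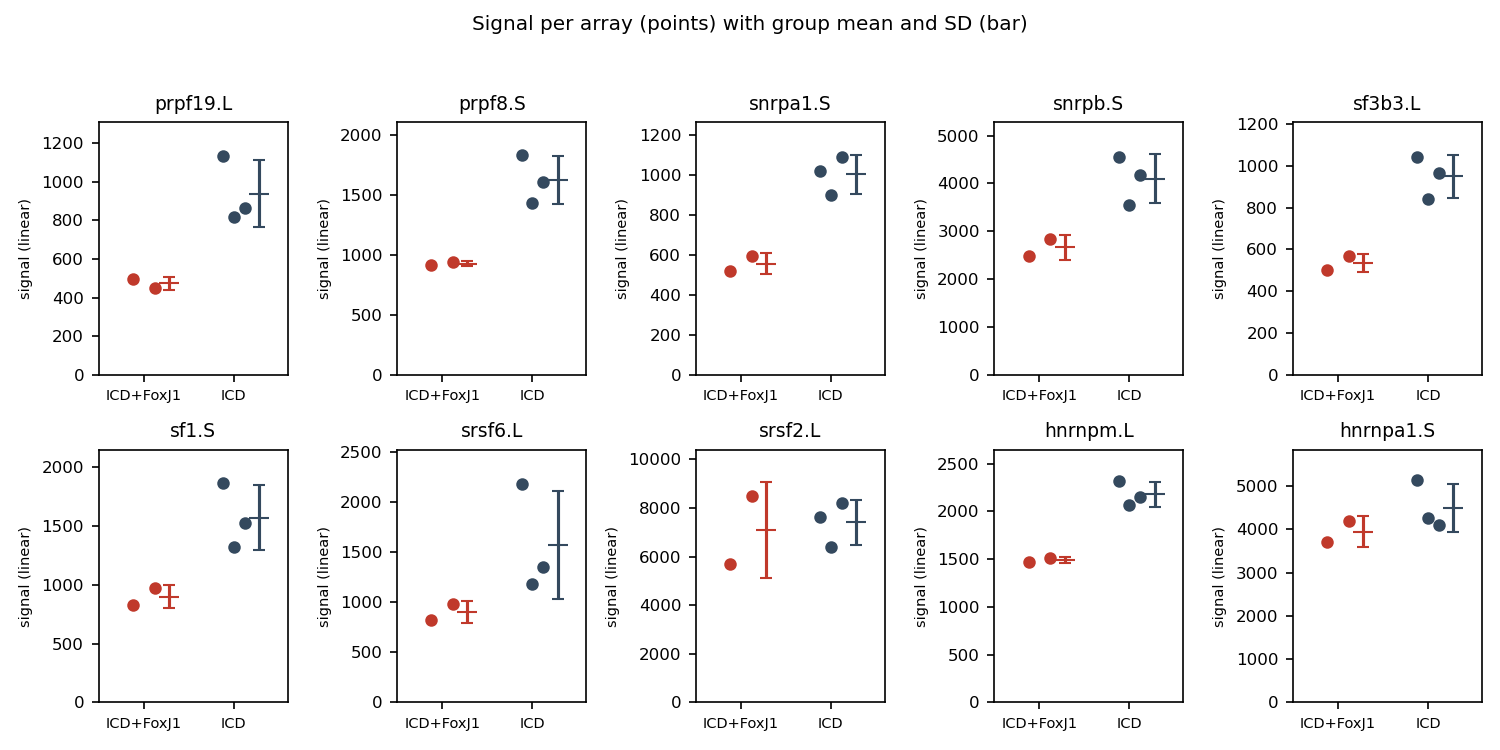
Signal (linear scale) of 10 splicing factor genes on the individual arrays, with ICD+FoxJ1 left of ICD. Points are arrays, and the bar beside them is the group mean ± SD (n = 2 and n = 3). The groups are apart for the genes of the upper row and for sf1.S, srsf6.L and hnrnpm.L, and overlap for srsf2.L and hnrnpa1.S.

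The 11 lsm genes were divided, with 6 below 0 and a median of -0.26, where 51.9% of all tested probe sets were below 0. Within the pair of arrays without poly-A signal their median difference was -0.06. Genes lsm2 to lsm8 encode the ring that holds the U6 RNA, whose parts also act in RNA decay, whereas lsm12, lsm14a and lsm14b match the naming rule but are known from cytoplasmic RNA. The 7 ring genes had a median of -0.42, with 5 below 0. Lsm5.L was at 285 and 288 with FoxJ1 and at 472, 419 and 373 with ICD alone (difference -0.53, SE 0.22, limma adjusted p = 0.189). Lsm6.S was at 195 and 177 against 340.1, 301 and 224 with ICD alone (difference -0.57, SE 0.25, limma adjusted p = 0.215). Neither gene had overlapping groups. Lsm3.S was at 517 and 504 against 807, 542 and 527 in ICD samples, where replicate 1 makes most of the difference of -0.26 (SE 0.25, limma adjusted p = 0.57). Lsm8.S differed by -0.59, lsm7.L by -0.42, lsm4.S by 0.07 and lsm2.L by 0.02. For lsm8.S too ICD replicate 1 stood apart, with 77.3 and 75.9 with FoxJ1 against 212.7, 101.9 and 84.5 with ICD alone. Within the pair of arrays without poly-A signal, lsm8.S differed by -0.13. Lsm14a.S was at 229 and 218 with FoxJ1 and at 372, 353 and 272 with ICD alone (difference -0.53, SE 0.24, limma adjusted p = 0.216). Lsm12.L had 633 and 639 in the ICD+FoxJ1 samples and 510.2, 485 and 446 in the ICD samples, the 1 gene of the 80 with both ICD+FoxJ1 arrays on top (difference 0.40, SE 0.20, limma adjusted p = 0.276). The lsm14b homeologs were also above 0, at 0.33 for L and 0.16 for S.

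SR proteins, named for their serine-arginine repeats, bind exons and recruit the splicing machinery. Of 14 srsf genes 13 had a difference below 0, with a median of -0.32, and in 7 the groups did not overlap. Separation with FoxJ1 lower had an array-wide share of 23.0%. Srsf6.L was at 826 and 979 with FoxJ1, against 2185, 1181 and 1354 with ICD alone (difference -0.75, SE 0.29, limma adjusted p = 0.162). Its homeolog srsf6.S was at 686 and 614 against 1004, 906 and 923 with ICD alone (difference -0.53, SE 0.20, limma adjusted p = 0.152). Neither copy had overlapping groups, and for the L copy ICD replicate 1 stood far above the rest. Srsf11.L was at 759 and 870.2 against 1428, 1127 and 1138 in ICD samples (difference -0.58, SE 0.21, limma adjusted p = 0.143). Srsf2.L was at 5683 and 8496 with FoxJ1 and at 7622, 6404 and 8190.2 with ICD alone, so that the ICD+FoxJ1 arrays held both the lowest and the highest value (difference -0.08, SE 0.21, limma adjusted p = 0.846). Srsf10.S, srsf1.L, srsf5a.S and srsf3.S differed by -0.60, -0.51, -0.49 and -0.42. The remaining 6 genes lay between -0.22 (srsf7.S) and 0.00 (srsf7.L). In srsf1.L the probe set chosen for its brightness spread widely, at 915 and 1642 with FoxJ1 against 2520.0, 1305 and 1648 without. A dimmer probe set of srsf1.L fell by 0.87 (SE 0.21, limma adjusted p = 0.0468), with 769 and 676.5 in the ICD+FoxJ1 samples and 1548, 1194 and 1279 in the ICD samples. The call for srsf1.L therefore differs between its probe sets.

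The hnRNPs coat nascent transcripts and often oppose SR proteins. Of their 20 genes 19 had a difference below 0, with a median of -0.33, but the groups were apart in only 6, or 30.0%, against 23.0% of all tested probe sets. ICD replicate 1 was the highest array for 15 of the 20. Within the pair of arrays without poly-A signal 12 of the 20 were lower, with a median of -0.19, where 51.9% of all tested probe sets were lower. Hnrnpm.L had the smallest p among them, at 1466 and 1511 with FoxJ1 against 2318, 2064 and 2148 with ICD alone (difference -0.54, SE 0.18, limma adjusted p = 0.113). Hnrnpu.L, of a nuclear matrix protein, was at 1682 and 1996 against 2795, 2285 and 2494 in ICD samples (difference -0.45, SE 0.19, limma adjusted p = 0.192). Its homeolog hnrnpu.S had overlapping groups, at 2024 and 3702 with FoxJ1 and 3891, 2915 and 4004 without (difference -0.38, SE 0.28, limma adjusted p = 0.451). In the other 3 probe sets of hnrnpu.S both ICD+FoxJ1 arrays lay below all ICD arrays, with differences of -0.50, -1.11 and -0.76, none past the threshold. Hnrnpdl.S was at 1346 and 1212 against 2585, 1504 and 1577 in ICD samples (difference -0.51, SE 0.27, limma adjusted p = 0.284), and hnrnpdl.L at 1939 and 1378 with FoxJ1 against 2065, 1878 and 1657 with ICD alone (difference -0.18, SE 0.22, limma adjusted p = 0.652).

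Hnrnpa1 is a well-known repressor of exon inclusion. Hnrnpa1.S was at 3698 and 4198 with FoxJ1 and at 5137, 4258 and 4098 with ICD alone (difference -0.18, SE 0.18, limma adjusted p = 0.572). Hnrnpa1.L was at 3659 and 3892 against 4622, 3627 and 3808 in ICD samples (difference -0.08, SE 0.18, limma adjusted p = 0.818). In both the groups overlapped. Differences near -0.6 in hnrnpab.L (-0.60) and near -0.5 in hnrnpa0.S (-0.54) came with wide ICD groups, since ICD replicate 1 had 2086 and 1942 where the other ICD arrays had between 749.6 and 965. Within the pair of arrays without poly-A signal, these 2 genes differed by 0.00 and 0.21. Hnrnpk.S differed by -0.04 in its brightest probe set and by -0.81 in a dimmer one (limma adjusted p = 0.0603). Hnrnpr.S differed by -0.10, with overlapping groups. The remaining members were hnrnpa0.L at -0.47, hnrnpa3 at -0.57 for L and -0.35 for S, hnrnpc at -0.30 for L and -0.08 for S, hnrnpd.L at -0.23, hnrnph1.L at -0.20 and hnrnph3.L at -0.36. In hnrnpa0.L, hnrnpa3.S and hnrnph3.L of these the groups did not overlap. Hnrnpa2b1.L was the 1 gene of the 80 not above the background level on all 5 arrays, with a highest signal of 33.0.

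Homeologs and repeated probe sets give a further view of the same genes, although they can bind each other's RNA. Of 15 genes with both an L and an S probe set, both copies were below 0 in 12. The copies were furthest apart in prpf4b (0.62 higher for L) and snrpd3 (0.62 lower for L). Of 22 genes with several tested probe sets, all probe sets shared 1 sign in 17. These include lsm2.L and prpf4b.L, whose probe sets lay above 0. The counts of pairs and probe sets have no array-wide share beside them, and 72 of the 80 genes lay below 0 in any case. The widest span was in hnrnpr.S, from -0.90 to 0.19. Of the 119 probe sets 117 were tested, since 2 were too dim, and 3 fell: both of prpf19.L and 1 of srsf1.L. The background for that count is the 2.99% of all tested probe sets that fell. The probe set chosen for 7 genes has an identifier of the kind that can bind transcripts of related genes, among them srsf1.L, hnrnpu.S and both hnrnpa1 copies.

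Splicing genes outside the naming rule were taken from a list of 142 symbols. It covers further spliceosome proteins, the exon junction complex, snRNP assembly and regulators, and 121 genes of it were on the array. Of the 117 tested, 96 had a difference below 0 and the median was -0.33. In the test 5 fell, 0 rose and 112 did not pass, so 5 of 117 stands beside the background of 2.99%. Snrnp200.L, the helicase that unwinds the U4 and U6 RNAs, was at 192 and 135 with FoxJ1 and at 456, 365 and 404 with ICD alone (fell by 1.25, SE 0.25, limma adjusted p = 0.0241). Snu13.L, which binds U4 RNA, was at 1192 and 1553 against 3259, 2485 and 2962 in ICD samples (fell by 1.07, SE 0.21, limma adjusted p = 0.0241). Its homeolog snu13.S was at 305 and 329 against 1087, 634 and 720.2 with ICD alone (fell by 1.28, SE 0.27, limma adjusted p = 0.0317). For both snu13 copies each ICD+FoxJ1 array lay below the lowest ICD array. The others encode cyclophilins of the spliceosome: ppil1.L fell by 1.24 (SE 0.26, limma adjusted p = 0.0289) and ppih.L fell by 0.87 (SE 0.21, limma adjusted p = 0.0456). Of the list, 1 gene fell without ICD replicate 3, 4 without ICD replicate 2 and 7 without ICD replicate 1. The shares of all tested probe sets that fell were then 1.43%, 1.77% and 5.64%. The median of the list was -0.32 without ICD+FoxJ1 replicate 1 and -0.31 without ICD+FoxJ1 replicate 2.

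**Figure D4:**
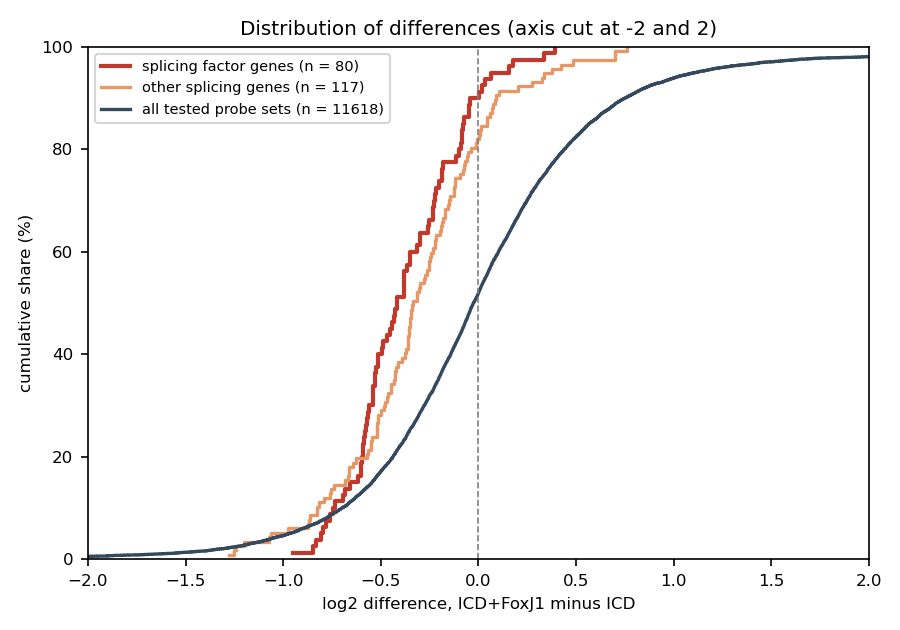
Cumulative share (%) of genes or probe sets by log2 difference, ICD+FoxJ1 minus ICD, for the 80 splicing factor genes, 117 other splicing genes and all 11618 tested probe sets. The medians are -0.42, -0.33 and -0.03, and the curve of the splicing factor genes is steeper than that of all probe sets.

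Other gene groups moved on the same arrays. Beside their counts stand the 2.99% of all tested probe sets that fell and the 4.48% that rose. Of 30 tested genes of proliferating cells, 0 rose, 7 fell and 23 did not pass, with a median of -0.79. The summed signal of that list was 5390 and 5981 in the ICD+FoxJ1 samples and 10618, 9140 and 10581 in the ICD samples. All 16 multiciliated cell markers rose, and their summed signal was 25601 and 28667 with FoxJ1 against 535, 1454 and 2071 with ICD alone. Of 17 epidermal genes 5 fell, and the summed signals overlapped between groups, with 40800.0 and 46551 in ICD+FoxJ1 samples against 47397, 46398 and 58407 in ICD samples. Of 15 neural genes 7 were at background on all arrays, of 7 tested 3 fell, and of 3 tested muscle and mesoderm genes 1 rose and 1 fell. The part of these cell types in the splicing factor values was not tested. The ratio of 3′ to 5′ control probe sets is commonly used as a sign of RNA integrity. For Gapd it was 2.76 and 3.87 with FoxJ1 and 2.75, 3.80 and 2.80 without, so the groups overlapped. For bAct it was 0.205 and 0.122 with FoxJ1 and 0.245, 0.217 and 0.181 without. These groups overlapped too, but ICD+FoxJ1 replicate 2 had the lowest bAct ratio. On every array the 3′ signal of bAct was below its 5′ signal, so this ratio may not report RNA integrity here.

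**Figure D5:**
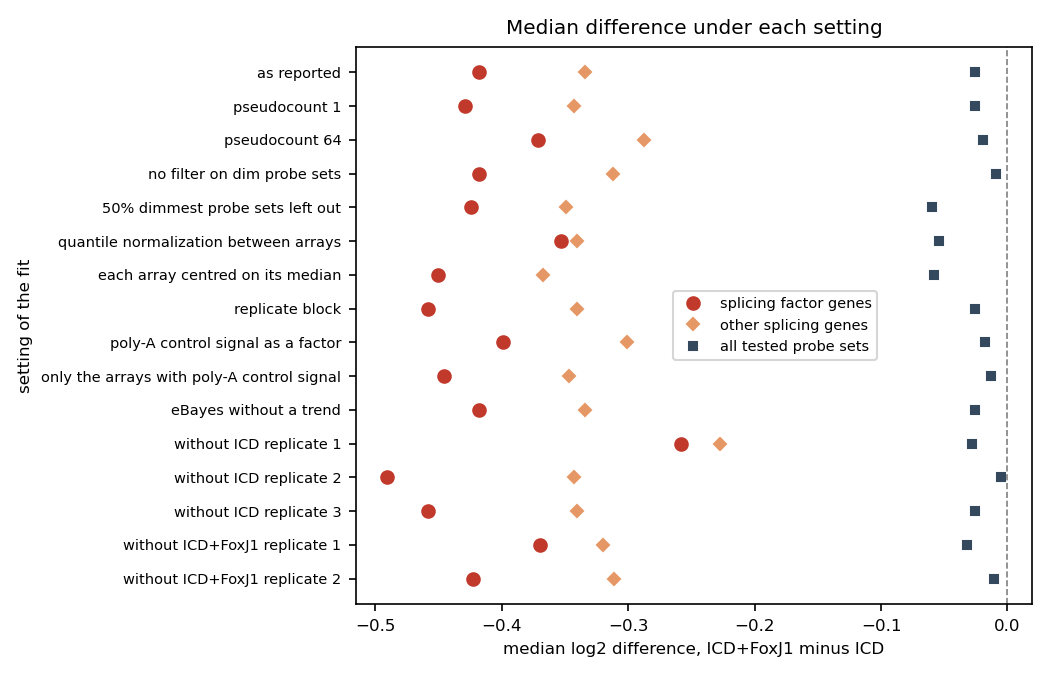
Median log2 difference, ICD+FoxJ1 minus ICD, of the splicing factor genes, the other splicing genes and all tested probe sets, under 16 settings of the fit. The splicing factor median lies between -0.49 and -0.26 throughout, nearest 0 without ICD replicate 1, and the median of all probe sets lies between -0.06 and 0.00.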

How the data were processed

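The authors deposited linear MAS5 signal intensity values, 1 for each probe set, per the submitters' processing notes. No version of MAS5 is given in the sources used here. The deposited values had trimmed means (2% cut at each end) near 200.03 on every array. Of 15611 probe sets, 120 controls were left out. Symbols came from GEO's platform annotation. All 80 member symbols were the same in RefSeq's gene table of Xenopus_laevis_v10.1, used for names only.

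Signals were compared as log2(signal + 16), which understates changes of dim probe sets. The 25% with the lowest mean were dropped, leaving 11618 and all 80 members. A linear model was fitted with limma (version 3.58.1, R 4.3.3; lmFit, eBayes with a variance trend), and two-sided p-values were adjusted by Benjamini-Hochberg across the whole table. Lists were described by counts and medians, without tests. The fit was tested on simulated data.

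The background level was the highest of 20 control probe sets for foreign sequences, 16.9 and 25.3 on ICD+FoxJ1 arrays and 28.4, 20.0 and 25.9 on ICD arrays. The number of arrays limits the precision. Members, lists and settings were chosen with earlier results of these data known. The rule named every member past the threshold, 3 per subfamily with the smallest p and the one with the highest signal, their homeologs, and up to 6 other splicing genes per direction. This gave 25 members, and those beyond it were named with their values seen. Figures used matplotlib 3.10.9.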

Additional observations from a re-analysis of the deposited data

How the results depend on the processing

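The medians of the splicing factor genes (-0.49 to -0.26) and of all subfamilies stayed below 0 in each setting tried. Leaving out the filter or the variance trend cannot move these medians. Using the replicate number as a block gave the same median, -0.46, as leaving out ICD replicate 3. The counts of called genes moved. Of the 80 genes, between 63 and 74 were below 0. The number that fell was 0 with a pseudocount of 1, without the filter and without the variance trend. It was also 0 with the presence of poly-A control signal as a factor. Of all tested probe sets 2.94%, 1.67%, 3.00% and 1.82% fell in these settings, in that order. The split by poly-A signal was inferred from the control probe sets, and no label names it as a batch. With the dimmest 50% left out 3 splicing factor genes fell, where 3.73% of all tested probe sets did. With quantile normalization 5 fell (prpf19.L, prpf8.S, snrpa1.S, sf3b3.L and sf1.S), where 3.62% did. Leaving out 1 ICD array gave 0 to 2, where 1.43% to 5.64% of all tested probe sets fell. It gave 1 to 7 of the other splicing genes. Of these, 1 fell with poly-A signal as a factor and 0 within the arrays that had it. The srsf median of -0.32 was -0.27 with quantile normalization, -0.42 with homeologs merged and -0.41 to -0.25 with 1 array left out. Over all probe sets, 143 to 736 rose and 34 to 655 fell with 1 array left out, 212 fell with poly-A signal as a factor, and 167 rose and 22 fell within the arrays that had it. Same-numbered samples did not deviate together (r = -0.06 for number 1 and -0.32 for number 2). With only 2 ICD+FoxJ1 arrays, their deviations from the group mean mirror each other. This check therefore cannot decide whether the numbers pair the samples. With the replicate number as a block, 243 probe sets rose and 73 fell, with 0 splicing factor genes and 0 other splicing genes lower and a srsf median of -0.41. With 1 ICD+FoxJ1 array left, that array is assumed to vary like the ICD arrays. The causes of these shifts were not tested. Signals near background, as for hnrnpa2b1.L, limit what can be seen.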
